A study of Mus musculus with 6 samples.

Results

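The macrophage and dendritic cell genes described here were 36 genes chosen by name because myeloid phagocytes and antigen-presenting cells make their products. They were measured among 18193 genes on Affymetrix arrays hybridised with RNA of mammary gland epithelial organoids, which are fragments of ductal epithelium freed from the gland by digestion. A gene was read on the probe set whose platform symbol was exactly its own and whose mean over the 6 arrays was highest, called the brightest below. The *Wwox KO* group held 3 mice that carried the *BK5-cre* transgene together with the *Wwox flox/flox* alleles, labelled KO5, KO6 and KO7. The *WT* group held 3 mice that were *Wwox flox/flox* without the transgene, labelled WT1, WT2 and WT3. All 6 mice were labelled as 8 weeks old and of a mixed 129/J and C57BL/6 background, and each gave 1 array. Floxed alleles were thus shared by both groups while *Cre* was present in the *KO* group alone, so loss of *Wwox* and presence of *Cre* cannot be told apart. The bovine keratin 5 promoter that drives *Cre* is active in basal cells of epithelia. Activity of *Cre* in leukocytes was not tested. In RNA of whole organoids, fewer cells of a type and less RNA per cell cannot be told apart.

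Macrophages and dendritic cells lie around and within mammary ducts. They take up dying cells and microbes through Fc, lectin and scavenger receptors, digest them in lysosomes, and show the peptides to T cells on MHC class II molecules together with costimulators. Growth factor receptors such as Csf1r and Flt3 and the transcription factors Spi1 and Irf8 direct their development from blood precursors. Epithelial cells do not make most of these proteins, although some, such as Cd14, are made by mammary epithelium as well.

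*Wwox* itself checked the labels, with 6.23, 5.87 and 5.96 in KO organoids, against 7.77, 7.63 and 7.72 in WT organoids (deposited log2 values, on which a difference of 1 is a 2-fold difference). Its change on this brightest probe set was -1.69 ± 0.13 (log2, SE, limma adjusted p = 0.0228). The dimmer *Wwox* probe sets had smaller changes of -1.04, -0.44 and -0.24 (limma adjusted p = 0.0675, 0.237 and 0.240). The epithelial genes *Krt8*, *Krt18* and *Epcam* lay between 13.75 and 14.71 on every array. Genes of other cells were high on every array as well. The adipocyte gene *Fabp4* lay between 14.02 and 14.30. The fibroblast genes *Col3a1* and *Dcn* lay between 13.29 and 14.03 and between 12.53 and 13.40. A probe set was called where its unadjusted limma p was under 0.01 and its change at least 2-fold, and 894 of 45037 probe sets were called, 759 of them higher and 135 lower in KO organoids. The groups differed in RNA quality: the 3' minus 5' difference of the *Gapdh* control probe sets was 0.40 to 0.56 on KO arrays and 0.95 to 2.41 on WT arrays (log2).

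Of the 36 genes, 5 were called lower in KO organoids, namely *Cd83*, *Aif1*, *Tyrobp*, *C1qb* and *Fcgr3*, and 0 were called higher. This was 13.9% of the 36, against 0.462% of all genes called lower. Of all genes 0.517% were called higher, so a count of 0 was close to that share. The 36 genes were chosen with earlier results of these data known. At an unadjusted p under 0.05 with no limit on the fold, 11 of the 36 genes were lower in KO organoids (30.6%, against 13% of all genes). None was higher at that limit, against 6.17% of all genes. All 3 KO arrays lay below all 3 WT arrays for 9 genes (25%, against 16.1% of all genes), and the change was below 0 for 33 genes (91.7%, against 61.2% of all genes). The median change was -0.39 for the 36 genes and -0.06 for all genes (log2). Of the 36 genes, 8 had a mean level below 5.45, the median over all probe sets (*Cd80*, *Cd209a*, *Itgax*, *Cd163*, *Mrc1*, *Itgam*, *Cx3cr1* and *Ccr2*), and the values carry no call of presence. No gene of the 36 passed an adjusted p of 0.05, which 25 of the 18193 genes passed. In 6 of the alternative fits 1 to 4 of the called genes passed it, with *Cd83*, *Aif1*, *C1qb* and *Fcgr3* passing when arrays were weighted.

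Single mice moved the count of called genes. It was 13 without WT3 (1.03% of all genes were then called lower), 1 without WT2 (0.269%), 2 without KO5 (0.484%), 2 without KO7 (0.467%) and 3 without WT1 (0.846%). With the 3' minus 5' difference of each array as a covariate 0 were called (0.55% of all genes), although the changes of the 5 genes lay between -2.18 (*Cd83*) and -1.09 (*C1qb*). The 3' minus 5' differences of the groups did not overlap, so this fit cannot fully tell RNA quality and genotype apart. After centring the arrays on ribosomal protein genes 3 were called (0.269%). Over the alternative fits the call was kept in 15 of 17 for *Cd83*, 12 of 17 for *C1qb*, 12 of 17 for *Fcgr3*, 8 of 16 for *Aif1* and 7 of 17 for *Tyrobp*.

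**Figure D1:**
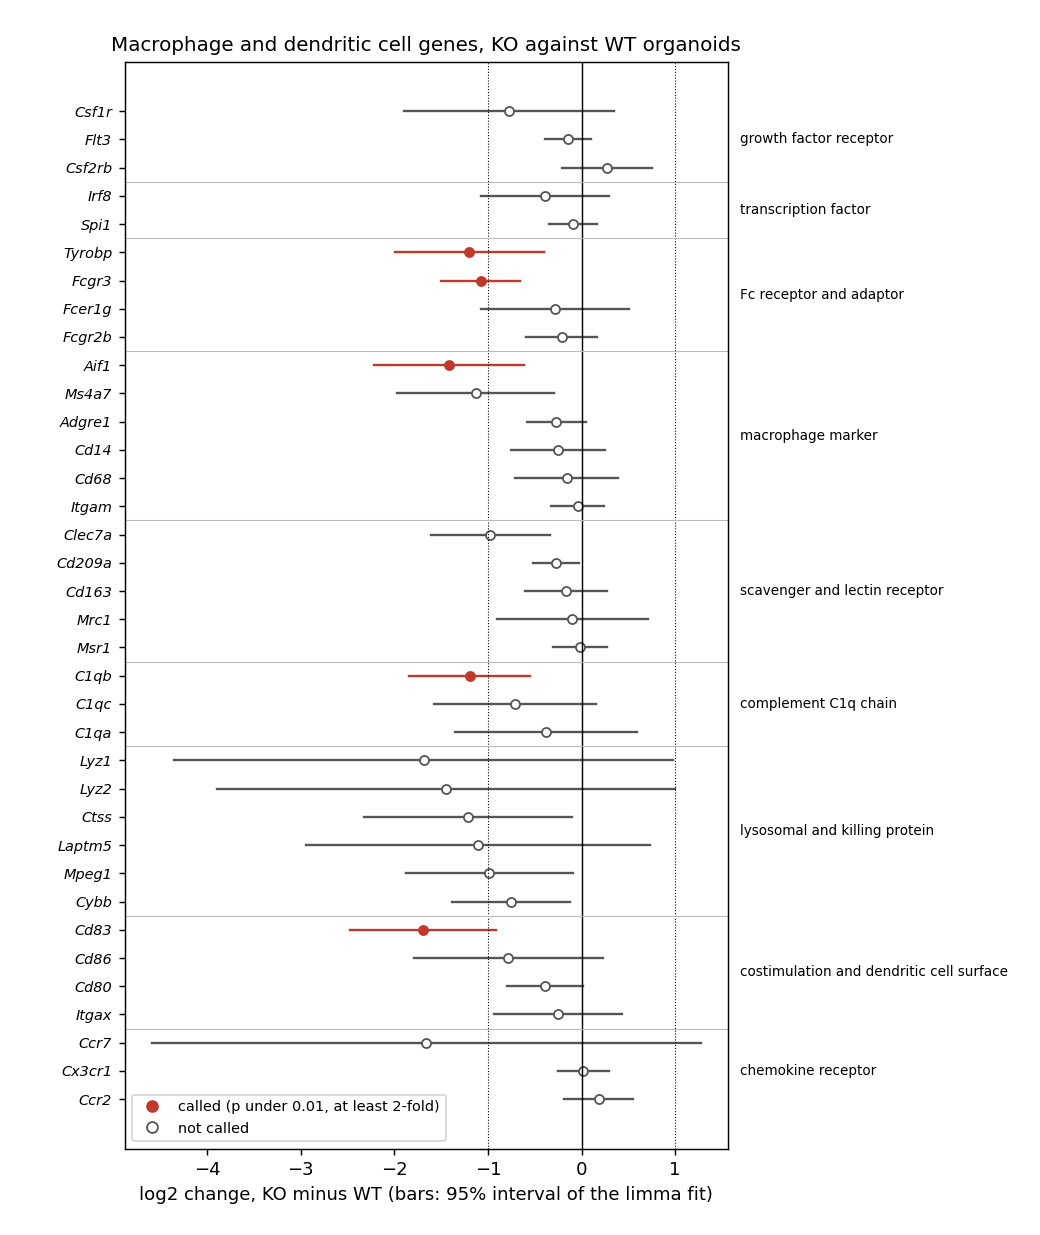
Log2 change between KO and WT organoids (x axis, KO minus WT) for the 36 genes grouped by role (y axis). Points are limma estimates, bars their 95% intervals, filled red points the 5 called genes, and dotted lines 2-fold differences; 33 points lie left of 0.

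Among the growth factor receptors, none of 3 was called. *Csf1r*, the receptor for the macrophage growth factors Csf1 and Il34, had 7.63, 9.23 and 8.03 in KO organoids, against 9.25, 9.70 and 8.27 in WT organoids. KO6 lay close to WT1 and above WT3, and the change of -0.77 had a 95% interval of -1.90 to 0.35. Its other 2 probe sets had changes of -0.49 and, with the opposite sign, 0.07, and both overlapped between the groups. *Flt3*, which dendritic cell precursors need, stayed between 5.81 and 5.84 in KO organoids and between 5.86 and 6.07 in WT organoids. The groups did not overlap but lay close together (change -0.14, interval -0.39 to 0.10). *Csf2rb*, the shared beta chain of the GM-CSF receptor, was the member with the highest change, at 0.27 (interval -0.21 to 0.75). Of 8 further genes for myeloid growth factors and their receptors, 0 were called in either direction (median change -0.08). They included *Csf1*, with a change of 0.19 (adjusted p = 0.723), and *Il34*, with a change of 0.30 (adjusted p = 0.292).

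Neither transcription factor was called. *Spi1*, which encodes the factor PU.1 of the myeloid lineage, ranged from 5.76 to 5.90 in KO organoids and from 5.82 to 6.03 in WT organoids. The values overlapped, with a change of -0.09 (interval -0.35 to 0.16). *Irf8*, an interferon regulatory factor needed by dendritic cells and monocytes, had 6.64, 7.48 and 7.23 in KO organoids, against 7.90, 7.64 and 6.98 in WT organoids. The change on this probe set was -0.39, and on the dimmer one it had the opposite sign (0.31), neither being called.

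Fc receptors, which bind antibody-coated particles, and their signalling adaptors held 2 of the 5 called genes. *Fcgr3* (probe set 1448620_at), an activating receptor for IgG, had 5.74, 5.97 and 5.49 in KO organoids, against 6.92, 7.01 and 6.50 in WT organoids. The groups were well apart and each spanned about 0.5, and the level fell by 1.08 ± 0.18 (log2, SE), which left KO at 0.474 of the WT level (adjusted p = 0.0570). *Tyrobp* (1450792_at), the adaptor through which many myeloid receptors signal by an ITAM motif, had 7.63, 8.43 and 7.95 in KO organoids, against 9.66, 9.49 and 8.45 in WT organoids. KO6 lay just below WT3 here. The fall was 1.20 ± 0.34 (adjusted p = 0.126), and it lost the call under quantile normalization.

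The other members of this group were not called. *Fcer1g*, the shared gamma chain of Fc receptors, had 6.73, 7.63 and 7.03 in KO organoids, against 7.97, 7.49 and 6.77 in WT organoids, and the groups overlapped (change -0.28, interval -1.07 to 0.50). *Fcgr2b*, the inhibitory IgG receptor, had 8.21, 8.66 and 8.08 in KO organoids, against 8.57, 8.53 and 8.48 in WT organoids. KO6 was the highest array of all for it. A dimmer *Fcgr2b* probe set spread more widely, with 6.23, 7.22 and 5.00 in KO organoids and 7.66, 7.64 and 6.63 in WT organoids, and was not called either (adjusted p = 0.301). *Fcgr2b* and *Fcgr3* have 1 protein-coding gene between them on chromosome 1. Of 12 further genes of ITAM signalling, 0 were called, with a median change of -0.07.

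Of 6 macrophage markers, *Aif1* alone was called. *Aif1* (1418204_s_at), a calcium-binding protein of the macrophage cytoskeleton, had 4.60, 4.96 and 4.84 in KO organoids, against 6.40, 6.85 and 5.39 in WT organoids. The KO values lay within 0.36 of each other and below every WT value, while WT3 stood more than 1 below WT1 and WT2. The KO values and WT3 were under the median of 5.45 over all probe sets, where values are compressed. The mean of 5.50 was also under the minimum mean of 6 used in an alternative fit, which left *Aif1* out. The fall was 1.41 ± 0.34 (adjusted p = 0.0941). *Ms4a7*, a membrane-spanning protein of tissue macrophages, had 6.15, 6.29 and 5.90 in KO organoids, against 7.07, 8.11 and 6.56 in WT organoids. Its groups did not overlap either, but its p missed the limit of a call (change -1.13 ± 0.36, adjusted p = 0.153).

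The longest-used markers of macrophages differed less. *Adgre1*, an adhesion receptor that defines mouse macrophages, had 5.89, 6.06 and 5.66 in KO organoids, against 6.06, 6.25 and 6.11 in WT organoids (change -0.27, interval -0.59 to 0.05). *Cd68*, a lysosomal membrane protein, had 7.21, 8.00 and 7.21 in KO organoids, against 7.77, 7.74 and 7.39 in WT organoids. KO6 was the highest of the 6 arrays for *Cd68*. *Itgam*, the integrin chain CD11b, lay between 3.43 and 3.72 on all 6 arrays, under the median of 5.45 over all probe sets. *Cd14*, the co-receptor for lipopolysaccharide, had 11.97, 12.12 and 12.13 in KO organoids, against 12.68, 12.46 and 11.83 in WT organoids. WT3 lay below all KO arrays, and the change of -0.25 had an interval of -0.75 to 0.25.

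Among scavenger and lectin receptors, 0 of 5 were called and 2 had p under 0.05. *Clec7a*, the receptor for fungal beta-glucan, had 5.77, 6.04 and 5.59 in KO organoids, against 6.94, 7.22 and 6.16 in WT organoids. All KO arrays lay below all WT arrays, and the change of -0.98 ± 0.27 was just short of 2-fold (adjusted p = 0.121). *Cd209a*, a C-type lectin of dendritic cells, had 4.89, 5.08 and 4.94 in KO organoids, against 5.25, 5.28 and 5.18 in WT organoids. These groups were apart by a small step (change -0.27 ± 0.11, adjusted p = 0.224). The mannose receptor *Mrc1*, the haemoglobin scavenger *Cd163* and the class A scavenger receptor *Msr1* overlapped between groups, with changes of -0.10, -0.17 and -0.02.

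C1q, the recognition unit of the classical complement pathway, is built of the chains C1qa, C1qb and C1qc, whose genes lie next to each other on chromosome 4 and which tissue macrophages make. *C1qb* (1434366_x_at) had 6.75, 7.28 and 7.23 in KO organoids, against 8.39, 8.75 and 7.70 in WT organoids. Every KO value was below every WT value. The level fell by 1.19 ± 0.28 (adjusted p = 0.0887). Its other 2 probe sets were called as well, with changes of -1.77 and -1.14, and on both the groups were apart.

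The other C1q chains were not called. *C1qc* had 5.43, 6.20 and 6.19 in KO organoids, against 7.33, 6.73 and 5.90 in WT organoids, so that WT3 lay below KO6 and KO7 (change -0.71, interval -1.58 to 0.15). *C1qa* had 6.73, 7.36 and 7.49 in KO organoids, against 8.56, 7.23 and 6.94 in WT organoids. WT1 alone stood above the KO arrays for *C1qa* (change -0.38, interval -1.35 to 0.59). Whether the change of *C1qb* differed from those of *C1qa* and *C1qc* was not tested.

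The lysosomal and killing proteins had the lowest median change of the role groups, at -1.16 over 6 genes, yet none was called. *Lyz2*, the lysozyme of myeloid cells, had 6.98, 9.83 and 7.12 in KO organoids, against 10.78, 10.17 and 7.32 in WT organoids. KO6 lay with WT1 and WT2, and WT3 lay with KO5 and KO7. The change of -1.45 had an SE of 1.05 (adjusted p = 0.498). *Lyz1*, the lysozyme of Paneth cells of the gut, had 8.19, 11.43 and 8.28 in KO organoids, against 12.08, 12.11 and 8.76 in WT organoids. The same 3 arrays were high and the same 3 low as for *Lyz2*. The genes are neighbours on chromosome 10 with similar sequences, and the *Lyz1* probe set is of the class that can bind related transcripts, so the signals may be shared. A dimmer *Lyz1* probe set had 3.31, 3.60 and 3.53 in KO organoids, against 4.14, 3.99 and 3.69 in WT organoids, a change of -0.46 (adjusted p = 0.163).

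*Laptm5*, a lysosomal membrane protein of blood cells, split in the same way, with 7.01, 8.65 and 7.10 in KO organoids and 10.04, 9.09 and 6.95 in WT organoids (change -1.11, adjusted p = 0.492). Of its other 4 probe sets, 3 were lower and 1 was higher in KO organoids, none of them called. *Ctss*, cathepsin S, which trims the invariant chain from MHC class II, had 8.78, 9.92 and 9.14 in KO organoids, against 10.90, 11.13 and 9.43 in WT organoids. WT3 lay below KO6 (change -1.21 ± 0.48, adjusted p = 0.225). *Mpeg1*, a pore-forming protein of macrophages, had 7.36, 8.00 and 7.48 in KO organoids, against 8.95, 9.17 and 7.69 in WT organoids (change -0.99 ± 0.38, adjusted p = 0.218). *Cybb*, the catalytic chain of the phagocyte NADPH oxidase, had 7.30, 7.15 and 6.82 in KO organoids, against 8.07, 8.24 and 7.24 in WT organoids. It was among the few members whose highest KO array was not KO6 (change -0.76 ± 0.27, adjusted p = 0.190). Of 4 further NADPH oxidase genes 0 were called, with a median change of -0.59.

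*Cd83* had the lowest change of the 36 genes. *Cd83* (1416111_at), a surface protein of mature dendritic cells that activated lymphocytes also carry, had 6.86, 7.85 and 6.70 in KO organoids, against 9.26, 8.80 and 8.43 in WT organoids. KO6 was again the highest KO array and WT3 the lowest WT array, with a gap left between them. The fall was 1.69 ± 0.33, to 0.309 of the WT level (adjusted p = 0.0675). Over its alternative fits the change lay between -2.18 and -1.20.

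The costimulators of T cells were not called. *Cd86* had 5.91, 6.65 and 6.06 in KO organoids, against 7.15, 7.80 and 6.01 in WT organoids, and WT3 lay among the KO arrays (change -0.78, interval -1.79 to 0.23). Its dimmer probe set had a change of -1.16 (interval -2.38 to 0.05) and was not called. *Cd80* had 4.55, 4.87 and 4.43 in KO organoids, against 4.74, 5.25 and 5.03 in WT organoids (change -0.39, interval -0.80 to 0.02). *Itgax*, the integrin chain CD11c of dendritic cells, overlapped as well, with 4.57, 5.18 and 5.09 in KO organoids and 5.84, 4.95 and 4.80 in WT organoids. *Itgax* and *Itgam* are neighbours on chromosome 7. Of 8 further genes of costimulation and its inhibition, on T cells (such as *Cd28*) or on antigen-presenting cells (such as *Cd40*), 0 were called (median change -0.49).

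*Ccr7*, the receptor that brings dendritic and T cells to lymph nodes, had the widest spread of the 36 genes. It had 4.96, 8.31 and 6.22 in KO organoids, against 10.02, 8.99 and 5.45 in WT organoids. WT3 lay below KO6 and KO7, and the change of -1.66 had an interval of -4.59 to 1.27 (adjusted p = 0.518). The receptors of inflammatory and patrolling monocytes did not share this spread on their brightest probe sets. *Ccr2* lay between 5.08 and 5.61 in KO organoids and between 5.05 and 5.24 in WT organoids, and *Cx3cr1* stayed within 4.65 and 4.94 on all arrays. Their changes were 0.18 and 0.02, at mean levels below the median of 5.45 over all probe sets. The dimmer probe sets were lower in KO organoids and not called. Their changes were -0.46, -0.16 and -0.02 for *Ccr2* and -0.23 for *Cx3cr1*. Of 5 genes listed as ligands of Ccr2 or Cx3cr1, 0 were called, with *Ccl2* at -0.34 (adjusted p = 0.785) and *Cx3cl1* at 0.53 (adjusted p = 0.240). The Ccr7 ligands *Ccl19* and *Ccl21a* had no probe set named by their symbol alone and were not measured.

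**Figure D2:**
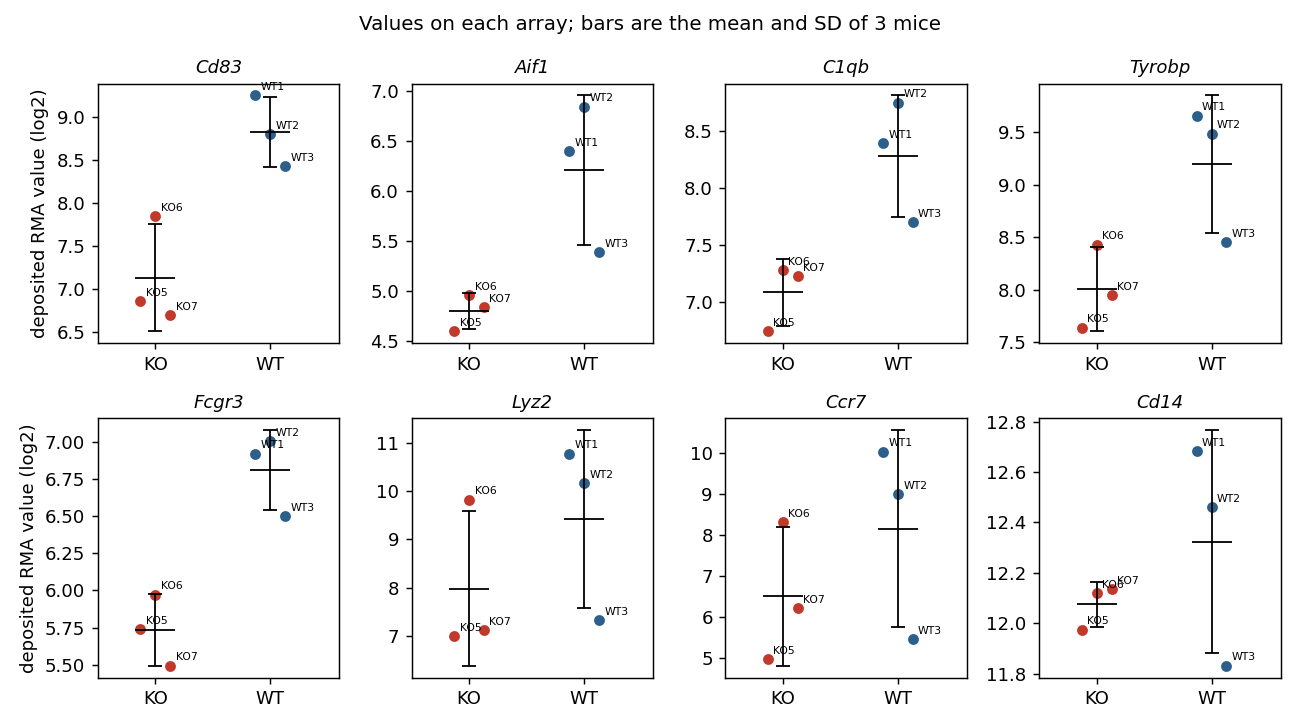
Deposited log2 value (y axis, own scale in each panel) on each of the 3 KO and 3 WT arrays for 8 genes. Long bars are the mean and capped bars the SD of 3 mice; Cd83, Aif1, C1qb, Tyrobp and Fcgr3 have every KO point below every WT point, whereas Lyz2, Ccr7 and Cd14 overlap.

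Upstream sequences are shown for *Aif1*, *C1qb* and *Fcgr3*, the called genes that the RefSeq promoter table (GRCm38.p6, 250 bases before to 50 after the start) held, because Spi1 binds purine-rich sites and myeloid promoters are its best-known targets. Capitals mark the letters GAGGAA, the core of such sites, or their complement TTCCTC on the printed strand.
Aif1, chr17:35176003-35176302, minus strand: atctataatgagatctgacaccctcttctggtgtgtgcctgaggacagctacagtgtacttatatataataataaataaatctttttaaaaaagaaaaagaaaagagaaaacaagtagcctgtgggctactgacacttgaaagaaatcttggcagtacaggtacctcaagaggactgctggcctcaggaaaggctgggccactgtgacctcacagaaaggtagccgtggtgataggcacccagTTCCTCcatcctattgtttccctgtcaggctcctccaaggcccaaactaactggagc
C1qb, chr4:136886151-136886450, minus strand: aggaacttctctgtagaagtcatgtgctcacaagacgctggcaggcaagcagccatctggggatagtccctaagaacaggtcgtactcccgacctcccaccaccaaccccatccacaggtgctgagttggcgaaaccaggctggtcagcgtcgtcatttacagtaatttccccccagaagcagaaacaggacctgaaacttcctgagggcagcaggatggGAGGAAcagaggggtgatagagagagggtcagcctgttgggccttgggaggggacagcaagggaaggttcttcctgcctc
Fcgr3, chr1:171059354-171059653, minus strand: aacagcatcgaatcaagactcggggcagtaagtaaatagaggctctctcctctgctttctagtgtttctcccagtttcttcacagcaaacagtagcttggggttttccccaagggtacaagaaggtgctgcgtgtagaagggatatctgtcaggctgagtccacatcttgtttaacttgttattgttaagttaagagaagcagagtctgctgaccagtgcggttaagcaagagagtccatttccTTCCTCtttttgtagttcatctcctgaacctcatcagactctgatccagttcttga
Each of the 3 held the letters once, beginning at -7 from the start in *Aif1*, -30 in *C1qb* and -6 in *Fcgr3*. The table holds a second, overlapping window for *Fcgr3*, in which the same letters begin at -15. Over both strands, GAGGAA was in the window of 12 of the 25 members in the table (48%), against 31.3% of 27025 genes. Members that were not called held it more often in a window. It occurred 3 times each in *Itgam* (change -0.04) and *Mrc1* (-0.10), and 2 times each in *Cd68* (-0.16) and *Ctss* (-1.21). The longer GAGGAAGT, which contains GAGGAA, was in 2 of the 25, *C1qc* and *Ctss* (8%), against 3.69% of genes. A match of letters is a description of the sequence only.

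The 36 genes moved together from mouse to mouse. KO6 was the highest KO array for 32 of them (88.9%, against 36.5% of all genes), and WT3 was the lowest WT array for 29 (80.6%, against 31.3%). Both held for 25 genes (69.4%, against 14.1%). The mean level of the 36 genes was 6.36, 7.10 and 6.50 on KO5, KO6 and KO7, against 7.62, 7.56 and 6.67 on WT1, WT2 and WT3. KO6 was thus above WT3, while WT1 and WT2 were above all KO arrays. The median range over the arrays of a group was 0.57 for the members and 0.29 for all genes in KO organoids, and 0.98 for the members and 0.36 for all genes in WT organoids. The range passed 2 in 4 genes, *Lyz1*, *Lyz2*, *Ccr7* and *Laptm5*.

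**Figure D3:**
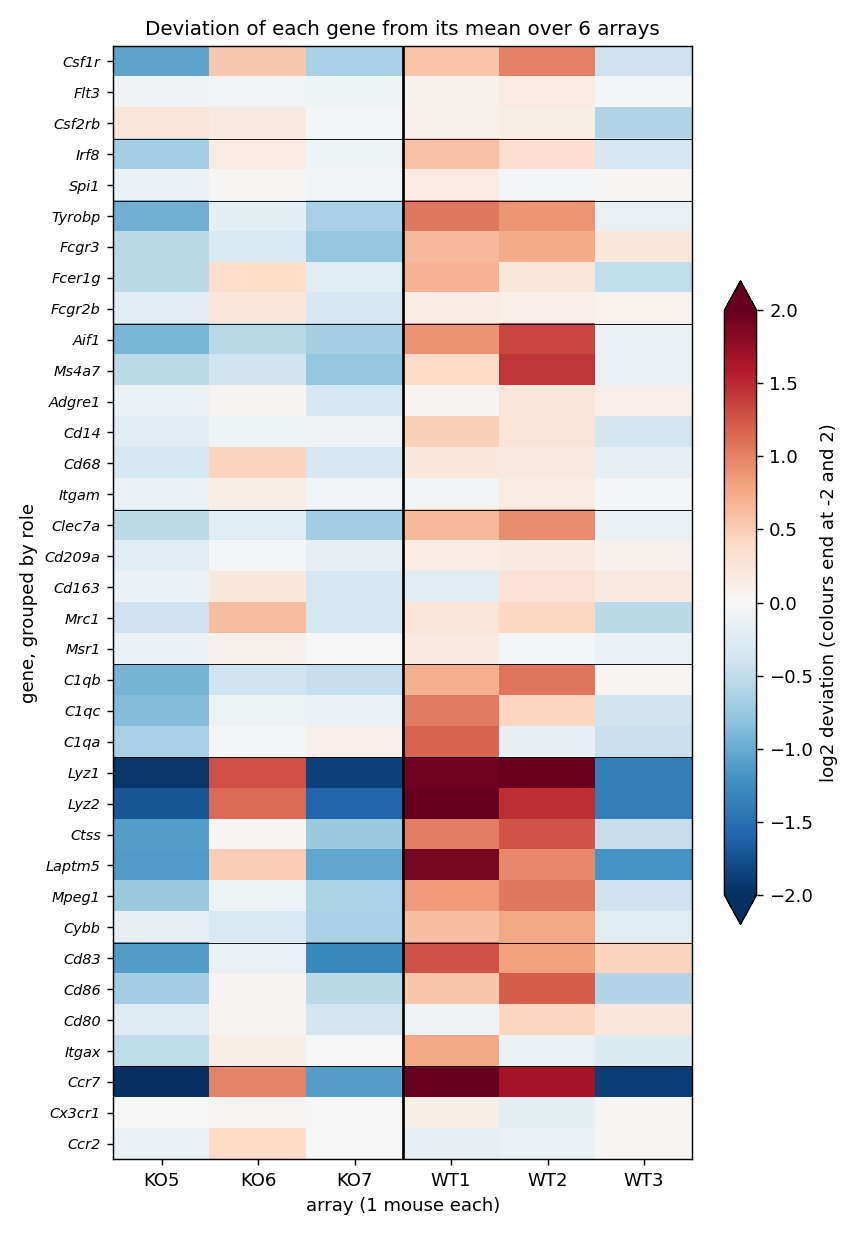
Deviation of each of the 36 genes (y axis, grouped by role) from its own mean over the 6 arrays (x axis, 1 mouse each), as log2 colours from blue (lower) to red (higher) that end at -2 and 2. KO6 is redder than KO5 and KO7, and WT3 bluer than WT1 and WT2, in most rows.

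By their mean level, pan-leukocyte, T cell, NK cell and B cell markers had the same high KO mouse and low WT mouse, KO6 and WT3. The mean of neutrophil and of mast cell markers was highest in KO6 among KO mice but lowest in WT2 among WT mice. The mean level of 10 pan-leukocyte genes was 6.39, 7.75 and 6.55 in KO organoids, against 9.20, 7.89 and 6.77 in WT organoids, with 0 of 10 called and a median change of -1.22. Among them *Ptprc*, which encodes CD45, had 7.16, 9.18 and 7.32 in KO organoids, against 11.29, 10.24 and 7.81 in WT organoids. Of 11 T cell genes 0 were called, and their mean level spanned 5.52 to 6.94 in KO organoids and 5.88 to 8.21 in WT organoids. Of 9 B and plasma cell genes 0 were called, with a mean level of 4.37 to 5.66 in KO organoids and 4.76 to 6.39 in WT organoids. With the pan-leukocyte level of each array as a covariate, an alternative added after seeing the data, 1 of the 36 genes was called lower, *Cd83* (change -1.20), against 1.37% of all genes. The changes of the other called genes were then -0.87 for *Fcgr3*, -0.91 for *C1qb*, -1.05 for *Aif1* and -0.67 for *Tyrobp*. Macrophages and dendritic cells make pan-leukocyte genes too, so this fit does not separate them from other leukocytes. The part of other leukocytes in the lower levels was not tested.

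Further genes of the same cells were counted in the same fit. Of 23 other macrophage genes 19 were lower in KO organoids, 6 of them at p under 0.05 and 0 called, with a median change of -0.37. Higher at p under 0.05 was 1 gene, *Mertk*, with all KO arrays above all WT arrays (change 0.40 ± 0.12, limma adjusted p = 0.145). Among all genes, 61.2% were lower, 13% were lower at p under 0.05 and 6.17% were higher at p under 0.05. Of 15 other dendritic cell genes 13 were lower, 7 of them at p under 0.05, and 1 was called, with 0 higher at p under 0.05. The called gene was *Ccl17*, a chemokine of dendritic cells, with 4.95, 5.31 and 5.30 in KO organoids and 6.34, 6.61 and 5.80 in WT organoids (change -1.07 ± 0.22, adjusted p = 0.0717). All 8 MHC class II genes were lower and 0 were called, with mean levels of 7.21 to 7.99 in KO organoids and 7.30 to 9.03 in WT organoids. Luminal genes, by contrast, had a median change of 0.12 over 11 genes and basal genes one of 0.02 over 10, with 0 called in each list.

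**Figure D4:**
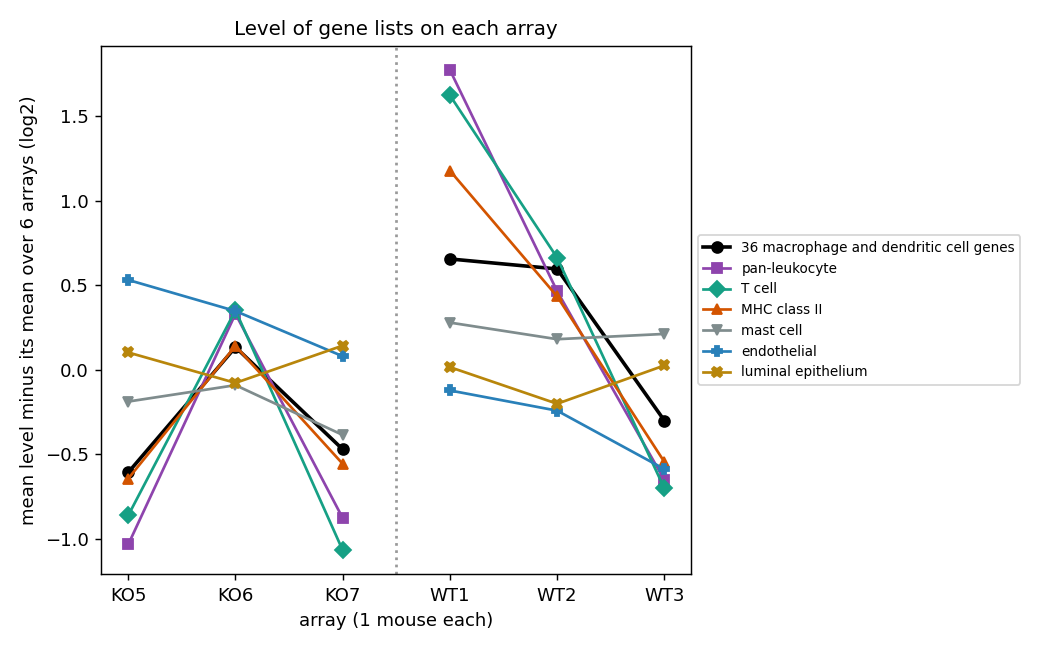
Mean log2 level of the 36 genes and of 6 marker lists on each array (x axis, 1 mouse each, KO left of WT), drawn as the difference from the mean of the list over 6 arrays (y axis). The members, pan-leukocyte, T cell and MHC class II lines peak at KO6 among KO arrays and dip at WT3 among WT arrays, and the luminal line stays near 0.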

How the data were processed

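Values were the log2 expression values that the authors deposited, made from Affymetrix mouse array scans with RMA (background correction, quantile normalization and median polish); the RMA version is not given in the sources used here. The table held 45101 probe sets, of which 64 Affymetrix controls were left out of the tests. RMA values carry no detection call, and low values are compressed. Named by the platform annotation, 34945 probe sets had 1 symbol, 932 had several and 9160 had none; the last 2 kinds named no gene.

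KO minus WT was fitted over 45037 probe sets with limma 3.58.1 in R 4.3.3 (lmFit and eBayes, two-sided, no covariate), and p-values were adjusted by Benjamini-Hochberg over all of them. Calls needed unadjusted p under 0.01 and at least 2-fold, the limits of the study's methods. The fit was tested on simulated data. Figures were drawn with matplotlib 3.10.9 in Python 3.11.15. All 36 genes were named. Of 21 other gene lists, the called genes and only some of the defining markers and ligands were named. Members and lists were chosen with earlier results of these data known. Arrays were separate mice, and 3 per group limit the precision. Alternatives changed the normalization, filter, variance prior, weights, covariates, pairing, choice of probe set, threshold and test, or left out each array. Titles number the mice of both groups, with nothing said of a shared litter or day.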

Additional observations from a re-analysis of the deposited data

How the results depend on the processing

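The count of 5 members called lower held within 1.5 times under quantile normalization, cyclic loess, a minimum mean of 6, an intensity trend, array weights and another choice of probe set. It was 3 with ribosomal protein centring, 0 with the 3' minus 5' covariate, 1 with the pan-leukocyte covariate (added after seeing the data), 1 with the unmoderated test, 0 at an adjusted p under 0.05 and 11 at an unadjusted p under 0.05. Leaving out 1 array gave 1 (without WT2) to 13 (without WT3). The 11 members lower at p under 0.05 became 5 with the 3' minus 5' covariate, 6 with the pan-leukocyte covariate and 6 with the unmoderated test, and 7 to 20 with 1 array left out. The share of all genes lower at p under 0.05 was counted in the main fit alone (13%). Whether all genes shifted likewise in the other fits was not counted. The 9 members whose groups lay apart (25%, against 23.3% of all genes apart in either direction) became 10 to 21 with 1 array left out, 21 without WT3 (58.3%, against 34.1%) and 20 without KO6 (55.6%, against 34%); fewer arrays lie apart more easily. The median change of -0.39 was -0.88 over members with a mean of at least 6, -0.71 with the 3' minus 5' covariate and -0.09 with the pan-leukocyte covariate, and -0.68 to -0.32 with 1 array left out. No member was called higher and no called change reversed under any alternative run. The cause of these differences was not tested. With the replicate number as a block (replicate block), 6 members were called and 13 had p under 0.05. These counts are given without the shares of all genes in that fit. Same-numbered arrays deviated together with correlations of -0.16, 0.16 and 0.10, so the numbers were not taken as pairs. Ribosomal protein centring raised the median change of all genes by 0.12 and left 29 members below 0, with *Spi1*, *Itgam*, *Mrc1* and *Msr1* above it; with cyclic loess only *Itgam* changed sign among the members. Of the members, 8 had a mean below the median probe set, where a change is compressed toward 0.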

Other observations

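Mast cell genes differed in another pattern over the mice. The mean level of 7 mast cell genes was 5.48 to 5.77 in KO organoids and 6.04 to 6.14 in WT organoids, so the groups did not overlap, and all 7 genes had a change below 0. One was called, *Cma1*, which encodes a chymase of mast cell granules, with 6.62, 6.83 and 6.49 in KO organoids and 7.92, 7.39 and 7.66 in WT organoids (change -1.01 ± 0.16, limma adjusted p = 0.0555). WT3 was not the lowest WT array for it. Of 8 neutrophil genes 5 were lower in KO organoids, with a median change of -0.13. One of them, *S100a9*, a calcium-binding protein of granulocytes and monocytes, was called, with 5.36, 6.06 and 6.05 in KO organoids and 7.33, 6.33 and 6.92 in WT organoids (change -1.04 ± 0.29, limma adjusted p = 0.122).

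Blood vessel genes ran the other way. All 10 endothelial genes had a change above 0, with a median of 0.68, and their mean level was 9.86 to 10.31 in KO organoids and 9.20 to 9.66 in WT organoids. Of these, *Cldn5*, a claudin of endothelial tight junctions, rose by 1.24 ± 0.14 (limma adjusted p = 0.0401) and *Flt1*, a VEGF receptor, by 1.07 ± 0.17 (limma adjusted p = 0.0555). Of 10 fibroblast genes 2 had a change below 0 and the median was 0.23. *Col1a1*, a chain of type I collagen, was called, with 10.46 ± 0.38 in KO organoids and 9.03 ± 0.04 in WT organoids (SD, n = 3 each).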
